A study of Bos taurus with 27 samples.

Results

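Abundance of 34 genes of cholesterol synthesis, sterol sensing, uptake, transport and storage was examined in 27 pools of bovine blastocysts. The genes were taken as a list by symbol. All 34 were present among the 32637 genes of the count table and all 34 were matched by symbol in the RefSeq gene table of ARS-UCD2.0. RNA of each pool came from 2 in vitro produced blastocysts at the expanding or expanded stage and of the best quality grade, which by the study's methods shared 1 treatment and 1 IVF replicate. The oocytes came from abattoir ovaries, matured in medium that held bovine follicular fluid collected before ovulation, either from follicles of greater maturity or from those of lesser maturity as ranked by serum estradiol of the donor cow, and were fertilized with frozen-thawed semen of the same bull. The labels do not state which pool received which follicular fluid or which IVF replicate it came from. The study's supplement lists the treatment of sequenced samples under another numbering, which the labels do not tie to the pools and which was not used here. No pool was therefore placed in a treatment, and values are given over all 27 pools as the lowest, the median and the highest. Pools of the same IVF replicate were produced together and may be alike. The p-values refer to these 27 samples and treat each pool as independent, so they can be too small.

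Cells build cholesterol from acetyl-CoA. The mevalonate enzymes make the isoprenoid farnesyl diphosphate, which is joined into squalene, and the sterol enzymes turn squalene into lanosterol and then cholesterol, a component of every animal cell membrane and the precursor of steroid hormones. When sterols are scarce in the endoplasmic reticulum, SCAP carries the precursor of SREBP-2 (gene SREBF2) to the Golgi, where it is cleaved into a transcription factor that activates the genes of the pathway, and when sterols are plentiful the INSIG proteins hold SCAP back. Liver X receptors (genes NR1H2 and NR1H3) sense oxidized sterols and activate genes of cholesterol export such as ABCA1 and ABCG1. Dividing embryonic cells need cholesterol for new membrane.

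The total count per pool was between 10517606 and 44253564 reads, with a median of 22293594, and 3 counts were equal to between 0.0678 and 0.285 CPM (the count of a gene scaled to the total count of its pool), which covers counting error only. A minimum of 1 CPM in 12 or more pools left 12310 genes for testing, including 33 of the 34 cholesterol genes. ABCG1 was not retained. The labelled tissue was blastocyst. The trophectoderm markers CDX2, GATA3, KRT8, KRT18 and TFAP2C summed to between 15498 and 38676 CPM in a pool. The keratins KRT8 and KRT18 had medians of 18607 and 7937 CPM, GATA3 and TFAP2C of 132 and 221 CPM. CDX2 was low, between 1.97 and 9.42 CPM. The epiblast markers POU5F1, NANOG and SOX2 summed to between 165 and 815 CPM, with medians of 399, 51.6 and 6.86 CPM. Of the 4 hypoblast markers, GATA6 was between 19.5 and 301 CPM and PDGFRA between 15.6 and 62.5 CPM. The other hypoblast markers were low, with GATA4 between 0.143 and 1.66 CPM and SOX17 at or under 3 counts in 22 pools. The 8 markers of cumulus and granulosa cells summed to between 5.31 and 34.4 CPM and the 4 leukocyte markers to between 1.56 and 15.7 CPM.

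Most of the pathway was readily measured in the blastocyst. In every pool, 31 of the 34 genes reached 1 CPM. The 34 genes together held between 4685 and 8421 CPM (median 6505 CPM), and the 19 synthesis enzymes alone held between 2794 CPM in pool 32 and 6770 CPM in pool 45, a 2.42-fold range. The library kit captures the 3' end of a transcript and no transcript length was available, so the values below are shares of reads and are not ranked between genes as levels per length.

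**Figure D1:**
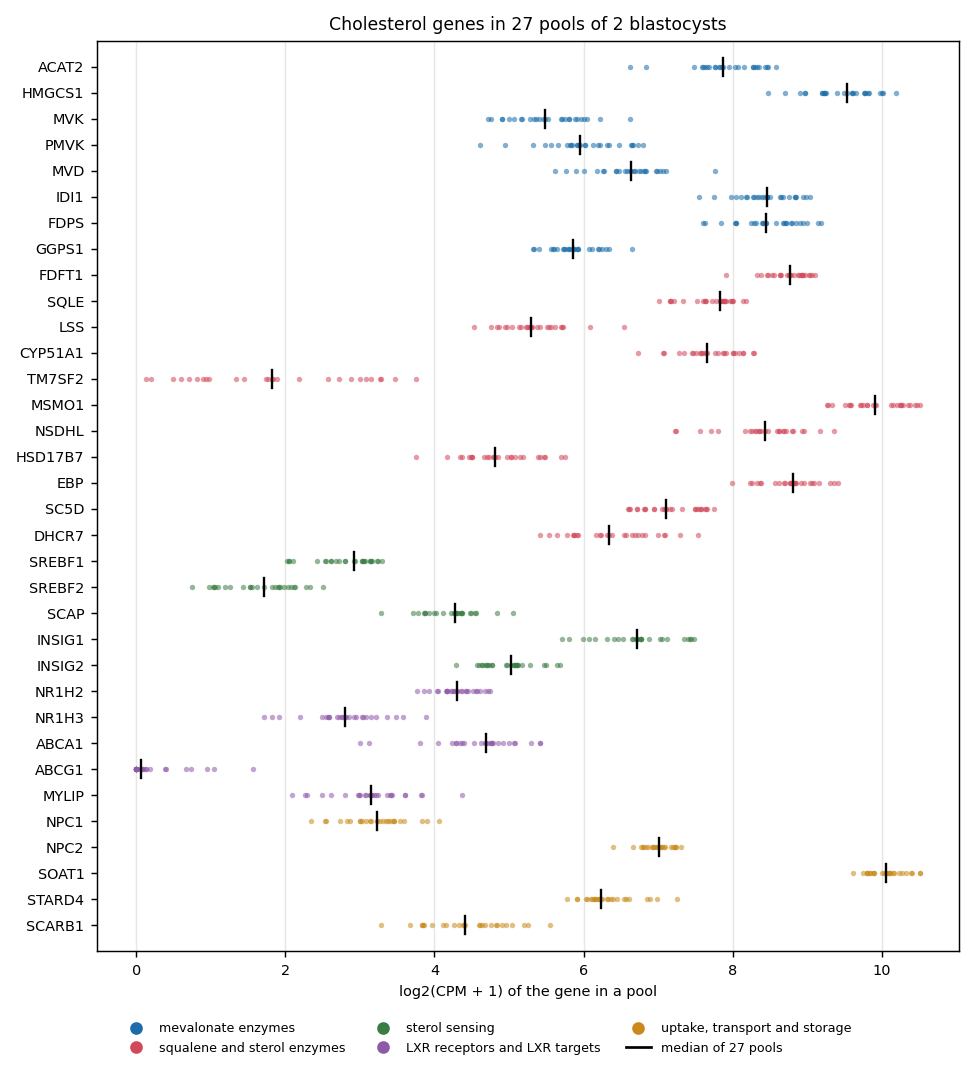
Abundance of the 34 cholesterol genes in 27 blastocyst pools. The x axis is log2(CPM + 1), each point is 1 pool, the black bar is the median of the 27 pools and colours mark the 5 groups of genes. Points of most enzymes lie close together, TM7SF2 is spread from 0.0951 to 12.5 CPM, and ABCG1 lies at or near 0.

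Among the mevalonate enzymes, HMGCS1 (chromosome 20, 31431132 to 31456871), which condenses acetoacetyl-CoA with acetyl-CoA, was between 355 CPM in pool 32 and 1169 CPM in pool 9 (median 739 CPM). ACAT2, which makes acetoacetyl-CoA, was between 97.7 and 381 CPM (median 234 CPM). The kinases MVK and PMVK had medians of 43.6 and 60.8 CPM, and the decarboxylase MVD had a median of 98.4 CPM. IDI1, which interconverts the C5 isoprenoid building blocks, was between 185 and 526 CPM (median 351 CPM). FDPS (chromosome 3, 15311071 to 15320244), which makes farnesyl diphosphate, was between 193 and 583 CPM (median 349 CPM). GGPS1, which diverts farnesyl diphosphate into geranylgeranyl diphosphate for protein prenylation and away from sterols, was between 39.0 and 99.2 CPM (median 57.0 CPM). For HMGCS1, ACAT2, PMVK, IDI1 and FDPS the lowest pool was pool 32, whereas the lowest for GGPS1 was pool 15.

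Among the squalene and sterol enzymes, MSMO1 (chromosome 17, 517449 to 534144), a methylsterol oxidase, was between 617 and 1464 CPM (median 962 CPM). FDFT1, the squalene synthase, had a median of 437 CPM and ranged from 240 to 551 CPM. SQLE, the squalene epoxidase, had a median of 226 CPM and ranged from 129 to 289 CPM. LSS, which closes squalene epoxide into lanosterol, had a median of 38.2 CPM. CYP51A1, the lanosterol demethylase, was between 105 and 311 CPM (median 200 CPM). The medians of SC5D, DHCR7 and HSD17B7, which act in later steps, were 137, 80.4 and 27.1 CPM. The X-linked genes EBP and NSDHL, a sterol isomerase and a sterol dehydrogenase, had medians of 446 and 346 CPM. TM7SF2, one of the sterol C14 reductases, had a median of 2.54 CPM and reached 1 CPM in 18 pools. Its highest pool had 384 counts and its lowest had 1 count. For the 18 enzymes other than TM7SF2, the highest pool was between 2.24 and 4.71 times the lowest.

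Among the genes of sterol sensing, SREBF2 (chromosome 5, 112832407 to 112890177) was between 0.679 and 4.66 CPM (median 2.29 CPM), between 15 and 102 counts in a pool. SREBF1, which encodes the related factor of lipid synthesis, was between 3.07 and 8.86 CPM (median 6.57 CPM). SCAP had a median of 18.4 CPM. INSIG1 (chromosome 4, 117125850 to 117138562), itself a known SREBP target, was between 51.5 and 179 CPM (median 104 CPM), and INSIG2 was between 18.6 and 50.4 CPM (median 31.7 CPM).

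Of the liver X receptors, NR1H2 had a median of 18.7 CPM and NR1H3 a median of 5.96 CPM. ABCA1, the transporter that exports cholesterol to lipid-poor apolipoprotein, was between 7.02 CPM in pool 9 and 41.8 CPM in pool 44 (median 24.9 CPM). ABCG1, which exports cholesterol to high-density lipoprotein, had no counts in 12 pools, was at or under 3 counts in 20 pools and reached 1 CPM in 2 pools, with a highest value of 1.96 CPM in pool 12. MYLIP, a ubiquitin ligase that lowers lipoprotein receptors, had a median of 7.87 CPM.

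Among genes of uptake, transport and storage, SOAT1 (chromosome 16, 60633316 to 60694899), which esterifies cholesterol for storage, was between 784 and 1460 CPM (median 1067 CPM). NPC2 and NPC1, which pass cholesterol out of the lysosome, had medians of 128 and 8.4 CPM. STARD4, a cytosolic sterol carrier, was between 53.8 and 152 CPM (median 74.4 CPM). SCARB1, a receptor for high-density lipoprotein, was between 8.74 and 46.0 CPM (median 20.3 CPM).

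The spread among pools was expressed as the biological coefficient of variation in edgeR, the part of a gene's variation that counting error does not give. Its median over all genes tested was 0.337, and 21 of the 33 retained cholesterol genes were below that median. The genes compared were not matched for abundance, so this count does not show that the list is more stable than other genes. NPC2 (0.156) and SOAT1 (0.186) varied little, and only 4.16% of all genes had a lower value than NPC2. The highest values were those of TM7SF2 (0.962), SREBF2 (0.507) and NR1H3 (0.415), 3 genes of low counts. HMGCS1 had a value of 0.300, FDFT1 of 0.207 and SQLE of 0.235.

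Across pools, 15 of 18 other synthesis enzymes rose with HMGCS1, as did INSIG1. The relation was tested with edgeR's quasi-likelihood test of each gene's counts on log2(CPM + 1) of HMGCS1 over the 27 pools (two-sided), and Benjamini-Hochberg adjustment covered the 12309 other genes. A slope of 1 means that a gene doubled when HMGCS1 doubled. HMGCS1 itself spanned 1.72 log2 units. Of the 32 cholesterol genes tested, 16 (50%) rose with HMGCS1 and 0 fell, with the adjusted p at 0.05. Over all genes tested, 2.17% (267 genes) rose with HMGCS1 and 1.24% (153 genes) fell. With library totals and no scaling factors, 173 genes rose, 313 fell and 15 of the cholesterol genes were called. The median slope was 0.57 over the 32 genes and 0.00018 over all genes tested.

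**Figure D2:**
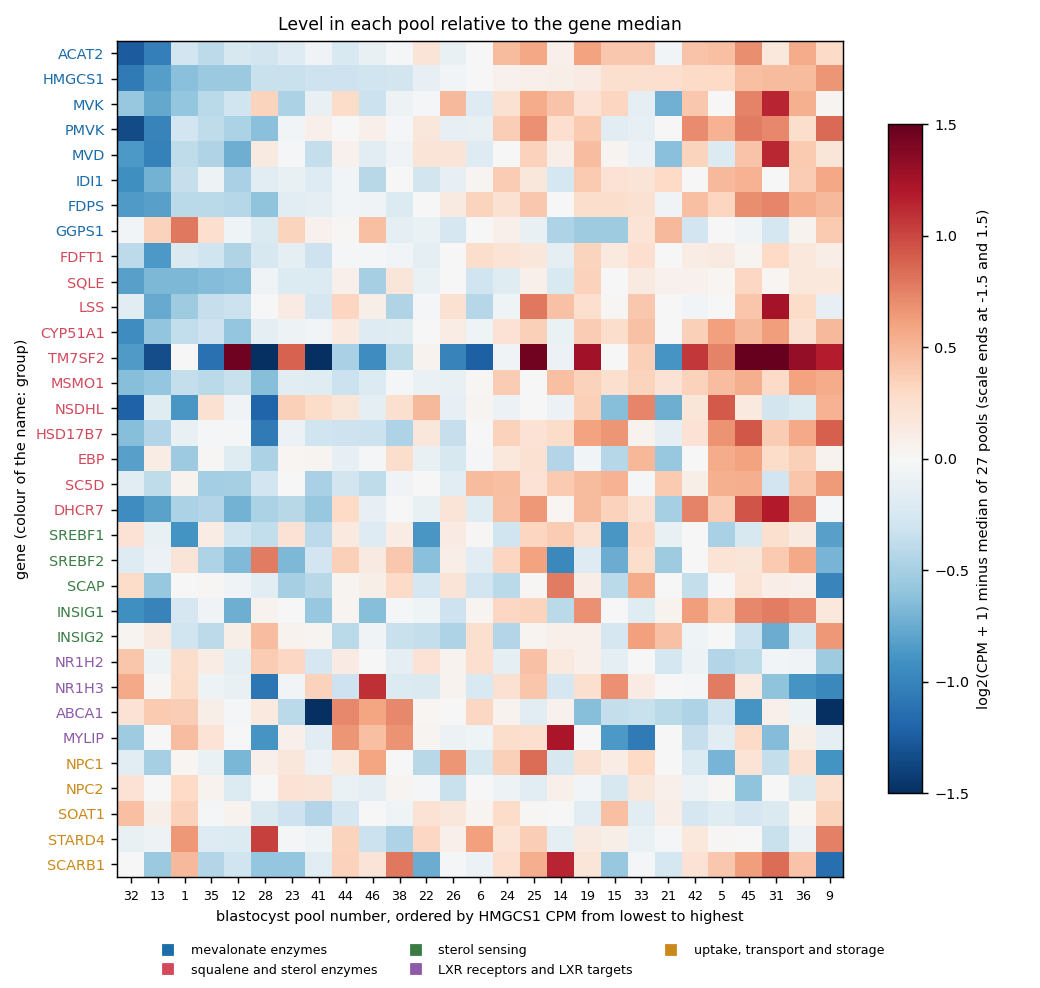
Abundance of the 33 retained cholesterol genes in each of the 27 pools, as log2(CPM + 1) minus the median of the gene. Columns are pools ordered by HMGCS1 from 355 CPM in pool 32 to 1169 CPM in pool 9, and name colours mark the groups. Most enzyme rows and INSIG1 turn from blue to red along that order, whereas GGPS1 and the rows of uptake, transport and storage do not.

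Of the 7 mevalonate enzymes tested, 6 rose with HMGCS1. FDPS had a slope of 1.02 (SE 0.0853, adjusted p = 2.26e-09). In the 2 pools lowest in HMGCS1, pools 32 and 13, FDPS was 193 and 198 CPM. In the 2 highest, pools 9 and 36, it was 490.5 and 511 CPM, values that illustrate the fitted slope and are no further test. ACAT2 had a slope of 1.04 (SE 0.113, adjusted p = 4.74e-07) and IDI1 a slope of 0.84 (SE 0.0895, adjusted p = 3.47e-07). PMVK, MVD and MVK had slopes of 1.16, 0.91 and 0.89. GGPS1, the enzyme of the non-sterol branch, had a slope of -0.12 (SE 0.140, adjusted p = 0.753).

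Of the 11 squalene and sterol enzymes, 9 rose with HMGCS1. The smallest adjusted p was that of MSMO1, with a slope of 0.91 (SE 0.0736, adjusted p = 2.01e-09). CYP51A1 had a slope of 0.92 (SE 0.0859, adjusted p = 2.69e-08) and DHCR7, which makes cholesterol in its final step in one branch of the pathway, a slope of 1.20 (SE 0.159, adjusted p = 1.54e-05). The slopes of FDFT1 and SQLE, 0.59 and 0.70, had standard errors of 0.0857 and 0.0940. HSD17B7, LSS and SC5D had slopes of 0.97, 0.71 and 0.69. EBP had a slope of 0.50 (SE 0.131, adjusted p = 0.0266). NSDHL had a slope of 0.55 (SE 0.202, adjusted p = 0.141) and TM7SF2 a slope of 1.78 (SE 0.573, adjusted p = 0.0819), and neither was called. TM7SF2 passed in DESeq2 (adjusted p = 0.0336) and in edgeR without pool 12 (adjusted p = 0.0130). LSS lost its call without pool 31 (adjusted p = 0.0517). EBP lost its call without pool 1, 31, 32, 36 or 45, with adjusted p values of 0.0505, 0.0542, 0.123, 0.0521 and 0.0625, and also when library totals were used without scaling factors (adjusted p = 0.0874).

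In pools 36 and 45 all 16 called genes were above their median over the 27 pools, and in pools 12 and 32 0 of the 16 were. Pool 32 held the lowest value of 8 of the 16 and pool 31 the highest value of 7, and these counts describe genes that the fit itself chose.

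**Figure D3:**
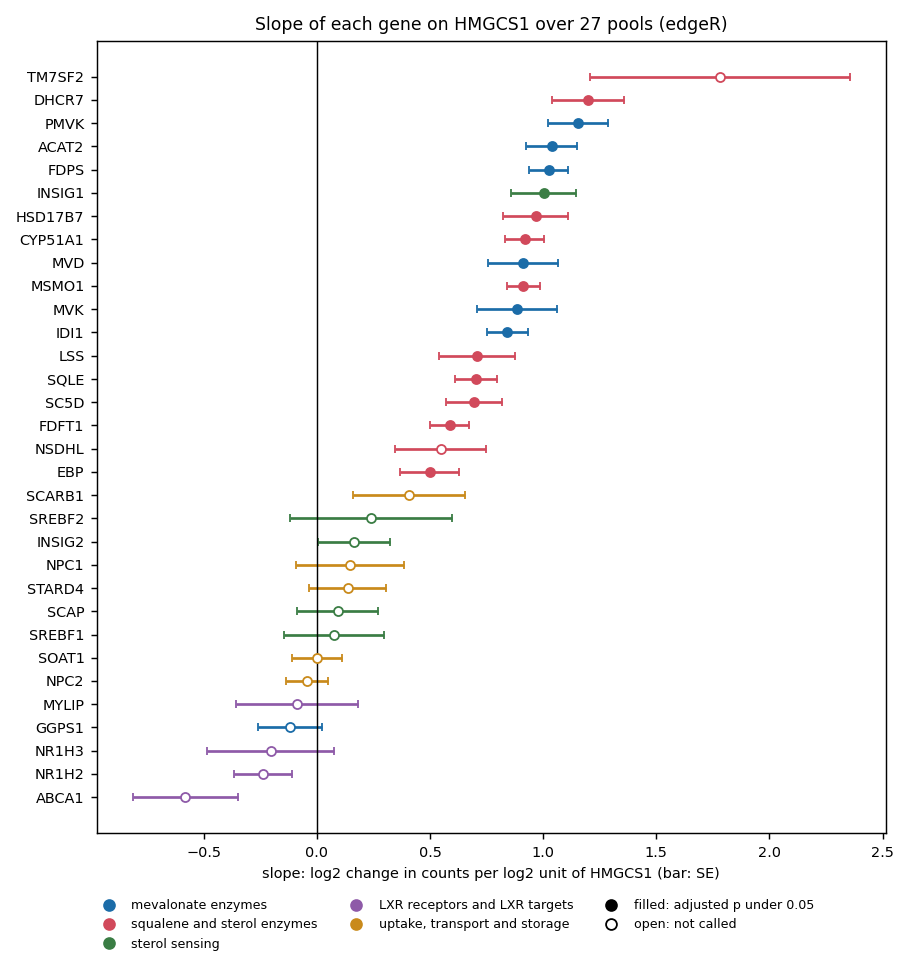
Slope of each of 32 cholesterol genes on HMGCS1 over 27 pools. The x axis is the log2 change in counts per log2 unit of HMGCS1, bars are standard errors, filled points passed an adjusted p of 0.05 in edgeR and colours mark the groups. The 16 filled points, 15 enzymes and INSIG1, lie between 0.50 and 1.20, and the genes of uptake, transport and storage lie between -0.04 and 0.41.

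Of the 5 genes of sterol sensing, INSIG1 rose with HMGCS1, with a slope of 1.00 (SE 0.144, adjusted p = 5.00e-05). INSIG1 was 54.9 CPM in pool 32 and 51.5 CPM in pool 13, and in the 2 pools highest in HMGCS1, pools 9 and 36, it was 117 and 171 CPM. Its own highest value, 179 CPM, was in pool 31. Its paralog INSIG2 had a slope of 0.16 (SE 0.159, adjusted p = 0.688). The slopes of SREBF2 (0.24, SE 0.358), SREBF1 (0.08, SE 0.222) and SCAP (0.09, SE 0.178) were smaller than their standard errors. SREBF2, at between 15 and 102 counts per pool, had an adjusted p of 0.818 in the fit that called 15 enzymes.

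Of the 4 liver X receptor genes tested and the 5 genes of uptake, transport and storage, 0 were called in edgeR. Over all genes tested, 2.17% rose and 1.24% fell, so 0 calls among these few genes do not set them apart from other genes. STARD4, which is also known as an SREBP target, had a slope of 0.14 (SE 0.169, adjusted p = 0.770), NPC1 a slope of 0.15 (SE 0.240) and SCARB1 a slope of 0.41 (SE 0.247, adjusted p = 0.439). SOAT1 and NPC2 had slopes of 0.00015 (SE 0.112) and -0.04 (SE 0.0930). ABCA1 had the lowest slope of the list, -0.58 (SE 0.232, adjusted p = 0.179). NR1H2 had a slope of -0.24 (SE 0.127), NR1H3 of -0.20 (SE 0.282) and MYLIP of -0.09 (SE 0.271).

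When all genes were ordered by the Spearman correlation of their CPM with that of HMGCS1 over the 27 pools, 11 of the cholesterol genes were among the first 21 of 12309, a limit that was set after seeing the ranks, at INSIG1. The next of them was SC5D at rank 32. MSMO1 was first (rho 0.926), FDPS second (rho 0.903) and CYP51A1 next (rho 0.880), as descriptions of 27 pools that share their library totals. GGPS1, NPC2 and ABCA1 stood at ranks 8647, 8535 and 11965. Outside the list, the genes most like HMGCS1 included ACSS2 (rho 0.872), which makes acetyl-CoA from acetate, SEPTIN10 (rho 0.871), a cytoskeletal GTPase, TMEM97 (rho 0.868), a sterol-responsive membrane protein that binds NPC1, and MTHFD2 (rho 0.840), an enzyme of mitochondrial folate metabolism. ACSS2 was between 2.15 and 95.2 CPM and had a slope of 2.45 (SE 0.309, adjusted p = 6.61e-06). TMEM97 was between 180 and 728 CPM and had a slope of 0.95 (SE 0.130, adjusted p = 2.39e-05).

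Over the 171 pairs of the 19 enzymes, Spearman's rho had a median of 0.603 and was positive in 155 pairs. All 16 negative pairs held GGPS1, which was negative with 16 of the other 18 enzymes and lowest with MVK (rho -0.668). With HMGCS1, GGPS1 had a rho of -0.232, beside a median of -0.0934 over all other retained genes. A negative rho with HMGCS1 was thus not particular to GGPS1. The 55 pairs among squalene and sterol enzymes were all positive, from 0.0385 for LSS with NSDHL to 0.846 for MSMO1 with HSD17B7. Pairs of an enzyme with a gene of uptake, transport or storage had a median rho of 0.0543. INSIG1 had a median rho of 0.710 with the 19 enzymes and INSIG2 a median of -0.0745. These correlations are descriptions over the same 27 pools.

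In a further list of 32 genes of sterol metabolism and transport, 23 were tested, with a median slope of 0.07. Of the 23, 2 (8.70%) rose with HMGCS1 and 0 fell, beside 2.17% and 1.24% of all genes tested. These few calls do not set the further list apart from other genes. The 2 that rose were TMEM97, already named above among the genes most like HMGCS1, and ERG28. ERG28, a scaffold of the sterol demethylation complex, had a slope of 0.59 (SE 0.145, adjusted p = 0.0194). ERG28 was between 72.3 and 182 CPM. LBR, the other sterol C14 reductase beside TM7SF2, was between 68.5 and 131 CPM and had a slope of 0.12 (SE 0.113). STAR and CYP11A1, which begin steroid synthesis, had medians of 11.3 and 14.9 CPM and were not called. ABCG5, a sterol exporter of liver and gut, ranged from 0.282 to 145 CPM, with a slope of 1.86 (SE 0.611, adjusted p = 0.0892). The receptor LRP2 had a median of 211 CPM and a slope of 0.32 (SE 0.223). VLDLR and LRP1 were not retained.

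For 10 relations, 2-sided permutation tests drew 100000 rearrangements of the pools, and Benjamini-Hochberg adjustment covered the 10 relations. HMGCS1 rose with IDI1 (rho 0.822, permutation p = 1e-05, the smallest the permutations can give, adjusted p = 0.0001; Pearson r 0.838, permutation p = 1e-05, adjusted p = 6.67e-05), or r of 0.772 when the 2 pools farthest from the HMGCS1 median were left out. With SQLE, rho was 0.746 (permutation p = 4e-05, adjusted p = 0.000133) and r was 0.761 (permutation p = 2e-05, adjusted p = 6.67e-05), or 0.727 without those 2 pools. With INSIG1, rho was 0.744 (permutation p = 2e-05, adjusted p = 0.0001) and r was 0.739 (permutation p = 2e-05, adjusted p = 6.67e-05), or 0.775 without them. The values of SQLE lay between 129 and 147 CPM in the 5 pools lowest in HMGCS1.

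**Figure D4:**
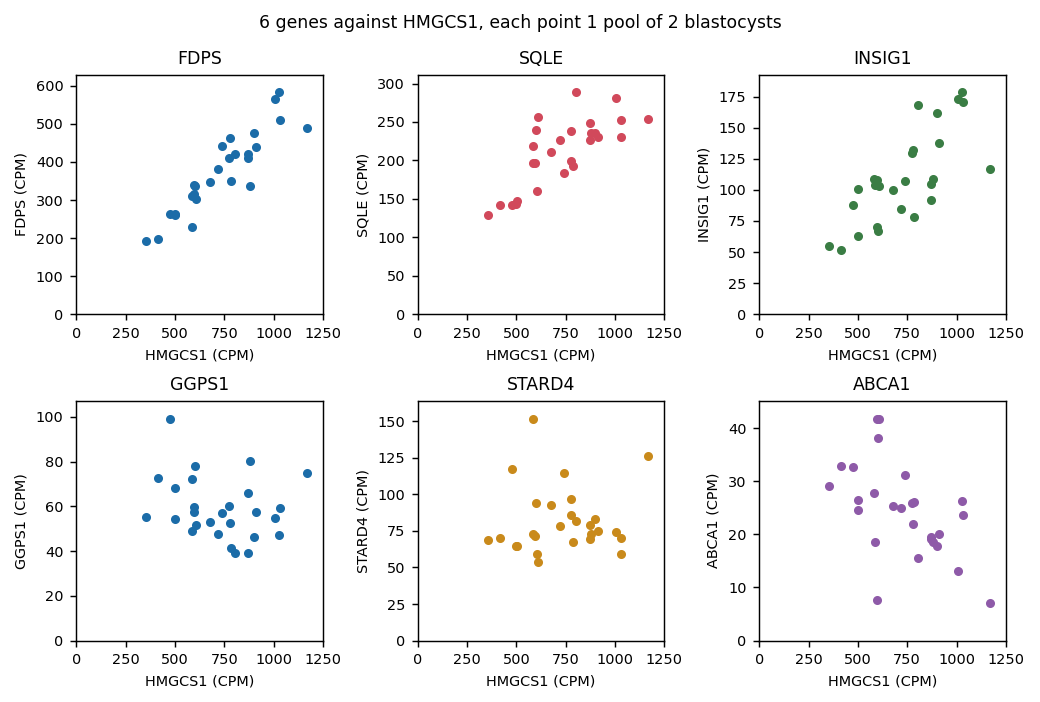
CPM of 6 cholesterol genes against CPM of HMGCS1, each point being 1 of 27 pools and all axes starting at 0. FDPS, SQLE and INSIG1 rise with HMGCS1, and GGPS1 and STARD4 show no such rise. ABCA1 is lowest, at 7.02 CPM, in the pool highest in HMGCS1. Its next lowest value, 7.69 CPM, is in pool 41, where HMGCS1 is 596 CPM, under its median of 739 CPM. ABCA1 was not called in edgeR (adjusted p = 0.179).

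HMGCS1 and ABCA1 moved in opposite directions when CPM was taken from library totals, with rho of -0.567 (permutation p = 0.00256, adjusted p = 0.0064) and r of -0.550 (permutation p = 0.00317, adjusted p = 0.00792), or -0.457 with the same 2 pools left out. With TMM library sizes rho was -0.444 (permutation p adjusted to 0.0543) and r was -0.434 (permutation p adjusted to 0.0612), and the call was lost. In edgeR, ABCA1 was not called with TMM (adjusted p = 0.179) or with library totals only (adjusted p = 0.0947). For STARD4, rho with HMGCS1 was 0.0855 (permutation p = 0.671, adjusted p = 0.839) and r was 0.0579 (permutation p = 0.776, adjusted p = 0.956), or -0.187 without the 2 pools. SREBF2 with HMGCS1 had a rho of 0.10 (permutation p = 0.618, adjusted p = 0.839) and an r of 0.0803 (permutation p = 0.689, adjusted p = 0.956), or 0.160 without the 2 pools farthest in SREBF2.

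INSIG1 and INSIG2 had a rho of -0.172 (permutation p = 0.390, adjusted p = 0.650) and an r of -0.232 (permutation p = 0.244, adjusted p = 0.407), or -0.0651 without 2 pools. NPC1 and NPC2, partners in lysosomal export, had a rho of -0.404 (permutation p = 0.0377, adjusted p = 0.0754) and an r of -0.383 (permutation p = 0.0487, adjusted p = 0.0974), or -0.246 without 2 pools, and passed when pool 12 was left out (rho -0.495, permutation p adjusted to 0.0224). Leaving out pool 23 or 33 gave rho of -0.452 and -0.476 (permutation p adjusted to 0.0440 and 0.0304). ABCA1 and ABCG1 had a rho of 0.0236 (permutation p = 0.907, adjusted p = 0.907) and an r of -0.00982 (permutation p = 0.959, adjusted p = 0.959), or 0.101 without 2 pools, at ABCG1 counts mostly at or under 3. The total count and HMGCS1 had a rho of -0.0250 (permutation p = 0.900, adjusted p = 0.907) and an r of -0.0355 (permutation p = 0.860, adjusted p = 0.956), or -0.0620 without 2 pools.

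Of the 5 trophectoderm markers, 2 passed the test with HMGCS1, in opposite directions. The keratin KRT18 rose (slope 0.55, SE 0.130, adjusted p = 0.0140) and the transcription factor TFAP2C fell (slope -0.36, SE 0.101, adjusted p = 0.0385). CDX2, GATA3 and KRT8 had slopes of 0.57, 0.19 and 0.38 and were not called. The 3 epiblast markers had slopes between -0.59 and 0.81, and the 2 hypoblast markers tested had slopes of -0.42 and -0.13. Among these and the 3 cumulus and 2 leukocyte markers tested, 0 were called. Since 2.17% of all genes tested rose and 1.24% fell, 0 calls in so few markers do not separate these cell types from the trophectoderm. In a pool of whole embryos, fewer cells of a type and less RNA per cell cannot be told apart. With KRT18 and TFAP2C as further covariates, an alternative chosen after seeing the data, 12 genes rose with HMGCS1 and 6 fell over all 12307 genes tested, and 7 of the 12 were cholesterol enzymes. These were MSMO1 (adjusted p = 7.36e-05), IDI1 (0.00433), FDPS (0.00562), CYP51A1 (0.00562), ACAT2 (0.0149), PMVK (0.0149) and SQLE (0.0203). MVK, MVD and LSS, with slopes of 0.19, 0.34 and 0.29 in that fit, were not called. FDFT1, HSD17B7, SC5D and INSIG1 were not called either, with slopes of 0.50 (SE 0.131), 0.85 (SE 0.236), 0.75 (SE 0.205) and 0.78 (SE 0.222), against 0.59, 0.97, 0.69 and 1.00 without these covariates. DHCR7 and EBP, with slopes of 0.72 and 0.37, were also not called. The standard errors of the 16 genes were larger in that fit. The IVF replicate and treatment of the pools were not entered, and their part in the relation was not tested.

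EBP (X, 86658038 to 86662086) and NSDHL (X, 35133671 to 35159670) are X-linked, and pools differed widely in XIST, a noncoding RNA that coats the silenced X in female cells, from 0.0484 to 35.4 CPM. Each gene was tested in the same way on log2(CPM + 1) of XIST, over 12309 genes. NSDHL rose with XIST, with a slope of 0.23 (SE 0.0411, adjusted p = 0.00111). It was 222 CPM in pool 15 and 208 CPM in pool 21, where XIST was 0.0484 and 0.146 CPM, and 655 CPM in pool 5 and 577 CPM in pool 33, where XIST was 35.4 and 32.8 CPM. The slope of EBP was 0.09 (SE 0.0385, adjusted p = 0.165). SOAT1 fell with XIST, with a slope of -0.10 (SE 0.0252, adjusted p = 0.0202). It was 1460 CPM in pool 15, its highest value, and 1145 CPM in pool 21, against 943 CPM in pool 5 and 952 CPM in pool 33. In pool 28, however, where XIST was only 0.475 CPM, SOAT1 was 921 CPM. The call was lost without pool 15 (adjusted p = 0.108) and with library totals only (adjusted p = 0.0725). The other 30 genes tested had slopes between -0.10 and 0.08 and were not called, the smallest adjusted p being 0.157. Over all genes, 2.56% rose and 1.99% fell with XIST, beside 1 and 1 of the 33 cholesterol genes. With library totals only, 386 genes rose and 92 fell, against 315 and 245.

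**Figure D5:**
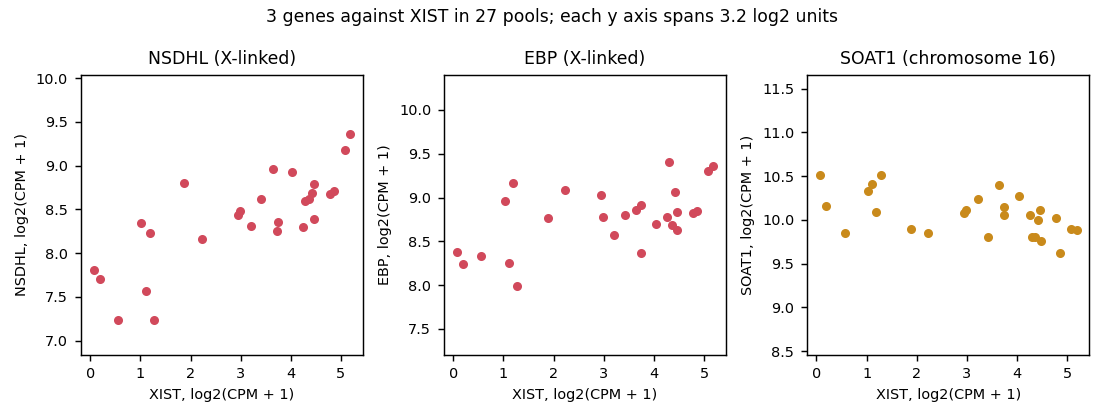
Abundance of NSDHL, EBP and SOAT1 against XIST in 27 pools, both axes as log2(CPM + 1), with every y axis spanning 3.2 log2 units and each point being 1 pool. NSDHL rises with XIST (slope 0.23), EBP has a slope of 0.09 and SOAT1 a slope of -0.10.

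When XIST was added as a covariate, chosen after seeing the data, NSDHL rose with HMGCS1 as well. Its slope was 0.64 (SE 0.108, adjusted p = 0.00047) and that of EBP was 0.54 (SE 0.108, adjusted p = 0.00311), and 17 of the 32 cholesterol genes were called. In the fit of XIST with HMGCS1 as a covariate, EBP also rose with XIST (slope 0.11, SE 0.0289, adjusted p = 0.0220). HMGCS1 itself had a slope of -0.05 on XIST (SE 0.0518, adjusted p = 0.706).

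On the log2 total count, 0 of the 33 cholesterol genes and 0% of all genes were called in edgeR, with 1 of the 33, SREBF2 (slope -0.51), at an unadjusted p under 0.05 and 340 of all 12310, and DESeq2 also called 0, with 388 genes at an unadjusted p under 0.05. Slopes of the 33 genes on the total count were between -0.51 and 0.09. Of the cholesterol genes, 10 overlap another RefSeq gene in ARS-UCD2.0, and the strand setting of the counting is not given in the sources used here. ACAT2 shares 1465 bases with TCP1, LSS shares 12614 bases and HSD17B7 shares 12177 bases with long noncoding RNA genes, and NSDHL holds a pseudogene of 1598 bases. These are overlaps of whole gene spans, introns included, and their effect on the counts was not tested.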

How the data were processed

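The deposited table holds raw counts per gene in 27 pools. Per the study's methods, the authors made 3' libraries with a SMART-Seq kit, used forward reads only, and ran fastp for trimming, STAR for alignment (genome ARS-UCD2.0) and featureCounts for counting. Tool versions, strand setting and annotation release are not given in the sources used here. All 27 columns were matched to pools by number. Treatment and replicate were not assigned.

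CPM used the column total. The filter was 1 CPM in 12 or more pools. Slopes on HMGCS1, XIST or total count were tested in edgeR 4.0.16 with TMM normalization, with DESeq2 1.42.0 as an alternative. Standard errors are the slope divided by the square root of its F. The edgeR slope on HMGCS1 was tested on simulated counts, and the other calculations were not. The cholesterol genes, the lists, the tests and the naming rule (all cholesterol genes, the 5 most like HMGCS1 and the pathway genes called with it) were chosen with earlier results of these data known. Of the 5, 1 is not reported here. Promoters, proteins and transcript lengths were not analysed here. R 4.3.3, Python 3.11.15, scipy 1.17.1 and matplotlib 3.10.9 were used.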

Additional observations from a re-analysis of the deposited data

How the results depend on the processing

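The 16 calls with HMGCS1 varied between 14 and 17 when each pool was left out in turn, with 0 genes of the list called lower each time, and between 15 and 17 under the other alternatives except KRT18 and TFAP2C as covariates. Without pool 31, 14 were called and 174 genes rose, and without pool 32 131 rose and 88 fell. Over all genes, 267 rose and 153 fell, against 173 and 313 with library totals only, which moved the median slope of all genes to -0.09, 662 and 563 without a filter, and 407 and 251 in DESeq2. Leaving out 1 pool gave 131 to 325 higher and 88 to 203 lower. With KRT18 and TFAP2C, 12 rose and 6 fell, and 7 cholesterol genes were called.

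With XIST, 315 rose and 245 fell, against 865 and 552 without a filter, 499 higher in DESeq2 and 92 lower with library totals only, where 0 cholesterol genes were lower. Adding HMGCS1 made 2 cholesterol genes higher. Leaving out 1 pool gave 232 to 385 higher and 118 to 312 lower, with 118 without pool 15 and 161 without pool 33, and 0 to 1 cholesterol genes lower. On the total count, 276 rose and 285 fell without a filter.

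Slopes on HMGCS1 that were not called changed sign for SREBF1 (-0.0137) and SOAT1 (-0.0882) with library totals only, for SOAT1 with the total count (-0.000214) or XIST (-0.0197) as a covariate, and with KRT18 and TFAP2C for SREBF2 (-0.52), MYLIP (0.42), NPC1 (-0.28), SOAT1 (-0.23) and STARD4 (-0.16). With TMM library sizes, HMGCS1 with ABCA1 had a rho of -0.444 and an r of -0.434, ABCA1 with ABCG1 a rho of -0.0716, and total count with HMGCS1 a rho of 0.0116 and an r of 0.00461. Leaving out 1 pool gave ranges of -0.00991 to 0.184 (rho) and -0.127 to 0.188 (r) for HMGCS1 with STARD4, -0.00533 to 0.207 (r) for SREBF2 with HMGCS1, -0.0677 to 0.121 (rho) and -0.142 to 0.120 (r) for ABCA1 with ABCG1, -0.495 to -0.340 (rho) and -0.462 to -0.299 (r) for NPC1 with NPC2, and -0.102 to 0.0571 (rho) and -0.128 to 0.0543 (r) for total count with HMGCS1. The cause of these changes was not tested. At every CPM limit 33 of the cholesterol genes were retained. The order by CPM per kb of transcript was not run, since the kit captures the 3' end of a transcript and no transcript length was given. No paired analysis was possible because the labels of the pools give no group and no replicate.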
